A study of Mus musculus with 82 samples.

Results

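Lamins and the proteins of the inner nuclear membrane were followed through the messenger RNA, chromatin accessibility and histone data of mouse hematopoietic stem cells (HSCs) and 3 of their progeny. The 10 genes were chosen by symbol from the raw gene count files, which list 55376 genes, and the histone peaks were taken by the gene name that the authors' peak annotation gives. They were Lmna, Lmnb1 and Lmnb2 (lamins), Lbr (lamin B receptor), Emd, Tmpo and Lemd3 (LEM domain proteins), Banf1 (barrier-to-autointegration factor) and Sun1 and Sun2 (SUN domain proteins). Each of the 10 passed the filter on low counts in all 6 mRNA comparisons.

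The nuclear lamina is a meshwork of intermediate filaments that lines the inner face of the nuclear envelope. Lmnb1 and Lmnb2 encode B-type lamins, which keep a farnesyl lipid anchor, and Lmna encodes lamins A and C, whose amount is known to follow tissue stiffness and to differ strongly between blood lineages. LBR and the LEM domain proteins tether heterochromatin and BAF to this meshwork, while SUN proteins span the inner membrane and join nesprins of the outer membrane to form the LINC complex, the bridge between lamina and cytoskeleton.

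The study asked how chromatin and transcription of HSCs change with age, and whether reducing a short Btaf1 transcript alters old HSCs. All mice were wild-type. Young HSCs (YHSCs, n = 4 libraries, pooled mice of 3 to 4 months) and old HSCs (OHSCs, n = 8 libraries, individual mice of 24 to 26 months) were sorted by the study's methods as LSK CD34- Flk2- CD150+ cells of male mice, so that pooling goes with age in these libraries. Cultured OHSCs received a scramble control shRNA (shControl) or Btaf1 shRNA1 or shRNA2 by lentivirus and were sequenced 3.5 days later. Transplanted HSCs were OHSCs that carried the same 3 vectors and were given to lethally irradiated young female hosts. They were recovered as GFP+ donor cells more than 4 months after transfer, in pools of 2 to 4 recipients. By the study's methods their sorting gate was not that of the YHSCs and OHSCs. Both experiments had 2 libraries per shRNA. Young common myeloid progenitors (CMPs), granulocyte-macrophage progenitors (GMPs) and megakaryocyte-erythroid progenitors (MEPs) had 2 libraries each, all labeled as batch 1. The study had ATAC-seq of 4 young and 8 old HSC libraries. Of the old ones only 4 were used here, since the files of the other 4 could not be tied to a sample. H3K27ac ChIP-seq covered 2 libraries of each age.

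Reads assigned to genes numbered 20475764 to 24654742 per library in YHSCs and OHSCs, 37292602 to 42737054 in culture, 37601706 to 42142361 after transplantation and 33177394 to 36510850 in progenitors, and ATAC-seq regions held 15427933 to 26260337 reads. The labels were checked against markers. Summed HSC markers (8 genes including Procr and Slamf1) lay at 3349 to 3541 CPM (the reads of a gene scaled to its library's total) in YHSCs, 3230 to 3780 in OHSCs, 1345 to 1580 in culture, 2510 to 2941.5 after transplantation and 534 to 880 in progenitors. Kit, which progenitors also express, was the largest part of these sums, at 1762 to 1919 CPM in YHSCs and 843 CPM in CMPs. Procr was at 173 to 196 CPM in YHSCs, 1.35 to 1.65 CPM in CMPs and 0 in MEPs. Summed myeloid markers (5 genes) lay at 60086 to 60981 CPM in GMPs and 14845 to 17970 CPM in CMPs, and summed erythroid markers (6 genes) at 6442 to 6877 CPM in MEPs and 344 to 361 CPM in CMPs. Megakaryocyte markers were low in MEPs, against that side of the label, with Itga2b at 2.54 to 2.73 CPM (338 to 360 in CMPs), Pf4 at 0.683 to 0.846 CPM (116 to 124), Gp9 at 5.09 to 5.16 CPM (10.8 to 12.3) and Vwf at 15.9 to 16.6 CPM (34.5 to 50.6). OHSC library 7 stood apart with 162 CPM of the B cell gene Ighm, and without it 5 of the 10 genes still passed the comparison with YHSCs. Btaf1, the targeted gene, measured over all its transcripts, fell in culture from 138 and 142 CPM in shControl to 109 to 118 CPM in the 4 knockdown libraries (log2 -0.31, SE 0.047, edgeR adjusted p = 0.00151). After transplantation it stood at 161 and 166 CPM in shControl and at 118 to 139 CPM in the knockdown libraries (log2 -0.37, edgeR adjusted p = 0.791).

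The promoters of the 10 genes differed in sequence before any measurement was considered. RefSeq (GRCm38.p6) gave promoter sequences for 9 of the 10 genes, and the 250 bases before the start held between 12 and 36 CpG dinucleotides in the first promoter of 8 of them. Lmna was the ninth, with 1 CpG in the first of its 2 RefSeq promoters and 4 in the second, where the median of 32851 promoters was 6 (quartiles 2 and 16). The most upstream GENCODE start of Lmna, at 88509956 on chromosome 3, was not among these promoters. CpG-rich starts are typical of genes used in most cells. The 5 promoters are printed with each CpG in capitals, Lmna for the scarcity of CpG in these windows and Lbr, Banf1 and Sun2 because their start regions lost accessibility in OHSCs. They lie at chr3:88503353-88503602 and chr3:88493313-88493562 (Lmna, minus strand), chr1:181842402-181842651 (Lbr, minus strand), chr19:5366877-5367126 (Banf1, minus strand) and chr15:79742537-79742786 (Sun2, minus strand).
Lmna, first promoter: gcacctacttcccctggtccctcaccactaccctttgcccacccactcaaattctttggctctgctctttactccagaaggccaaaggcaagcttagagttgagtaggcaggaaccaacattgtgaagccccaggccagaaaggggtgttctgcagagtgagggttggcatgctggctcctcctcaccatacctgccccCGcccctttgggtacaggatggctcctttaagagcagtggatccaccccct
Lmna, second promoter: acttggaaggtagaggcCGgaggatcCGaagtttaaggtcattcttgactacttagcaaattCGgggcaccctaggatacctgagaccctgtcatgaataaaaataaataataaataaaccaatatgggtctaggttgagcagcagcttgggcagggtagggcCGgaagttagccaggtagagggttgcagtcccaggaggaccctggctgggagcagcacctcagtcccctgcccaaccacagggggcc
Lbr: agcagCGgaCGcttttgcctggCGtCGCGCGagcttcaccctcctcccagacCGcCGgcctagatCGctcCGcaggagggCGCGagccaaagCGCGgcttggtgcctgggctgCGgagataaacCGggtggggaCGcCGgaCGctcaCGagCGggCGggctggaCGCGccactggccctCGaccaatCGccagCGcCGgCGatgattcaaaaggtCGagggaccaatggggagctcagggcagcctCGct
Banf1: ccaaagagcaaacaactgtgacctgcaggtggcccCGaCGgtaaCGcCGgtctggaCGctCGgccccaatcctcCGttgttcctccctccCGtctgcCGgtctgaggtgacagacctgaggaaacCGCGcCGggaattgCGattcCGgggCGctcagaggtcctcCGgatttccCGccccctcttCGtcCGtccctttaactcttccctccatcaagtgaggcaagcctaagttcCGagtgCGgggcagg
Sun2: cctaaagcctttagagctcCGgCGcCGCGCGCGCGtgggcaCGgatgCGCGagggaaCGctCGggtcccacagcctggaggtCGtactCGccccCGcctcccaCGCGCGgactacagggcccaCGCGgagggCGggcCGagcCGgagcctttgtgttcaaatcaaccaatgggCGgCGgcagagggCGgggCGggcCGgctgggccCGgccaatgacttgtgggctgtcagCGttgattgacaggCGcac

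Short motifs were searched by exact letters on both strands of these 250 bases. GGGCGG, the core of the GC box, was found in 9 of 9 first promoters (32.7% of all promoters hold it), and CCAAT in 7 of 9 (33.8% of all), with the first promoters of Lmna and Lmnb2 lacking it. TATAAA was found in 0 of 9 first promoters (12.4% of all). The letters AGATAA, which holds the core that GATA factors recognize, were found in 1 of 9, that of Lbr (9.99% of all). CCGGAAG, which holds the core recognized by ETS factors, was found in 1 of 9, that of Lemd3 (6.91% of all). Of the second promoters, that of Lmna held CCAAT and CCGGAAG, and that of Sun1 held CCAAT and TATAAA. The shares of all promoters include second and later promoters of a gene. These matches describe letters in a window and not bound sites.

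Lmna carried the largest age difference among the 10 genes. It lies on chromosome 3 at 88480147 to 88509956 (mm10, minus strand). Its level was 13.0, 11.5, 11.3 and 9.53 CPM in the 4 YHSC libraries, and in the 8 OHSC libraries the lowest, median and highest levels were 4.54, 5.93 and 7.90 CPM. Every OHSC library was below every YHSC library. The fitted log2 difference was -0.93 (SE 0.125), 0.525 of the young level, with edgeR's adjusted p = 4.11e-06. The counts behind these levels were 231 to 311 reads in YHSCs and 102 to 179 in OHSCs. In bulk libraries, fewer cells that express a gene and less RNA per cell cannot be told apart.

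Erythroid markers moved in the same direction as Lmna. Their 6 genes summed to 163 to 231 CPM in YHSCs and 23.3 to 68.6 CPM in OHSCs, 5 of the 6 were lower at an adjusted p below 0.05, and none was at 0 in these libraries. Klf1, an erythroid transcription factor, had a median of 11.9 CPM (9.63 to 15.7) in YHSCs and 3.29 CPM (2.16 to 5.03) in OHSCs. On a scale normalized over all RNA libraries, mean Lmna was 10.1 CPM in YHSCs, 5.20 in OHSCs and 369 in MEPs, so that the young and old levels were 2.72% and 1.41% of the MEP level. The corresponding shares of the MEP level were 1.101% and 0.284% for Klf1, 2.33% and 0.868% for Gata1, 1.98% and 0.115% for Car1 and 6.08% and 4.38% for Epor. Other marker lists differed as well. Lymphoid and B cell markers (7 genes) summed to 108 to 217 CPM in YHSCs and 34.8 to 199 CPM in OHSCs, where the median was 43.6 and library 7 the highest, and 5 of the 7 were lower (Ly6d log2 -5.77, Cd79a -4.71), with Pax5 at 0 in at least 1 OHSC library. Myeloid markers summed to 141 to 167 CPM in YHSCs and 302 to 358 CPM in OHSCs, with Prtn3 higher (log2 1.32). Mpo passed as lower, with overlapping groups and a wide spread in YHSCs (0.495 to 28.7 CPM, against 0.446 to 1.4998 CPM in OHSCs), and the other 3 were not called. Among megakaryocyte markers, Itga2b (log2 1.24), Vwf (log2 1.205) and Gp9 (log2 0.39) were higher in OHSCs, and Pf4 did not pass (log2 -0.027). The part of erythroid or other lineage transcripts in the age differences of the 10 genes was not tested.

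**Figure D1:**
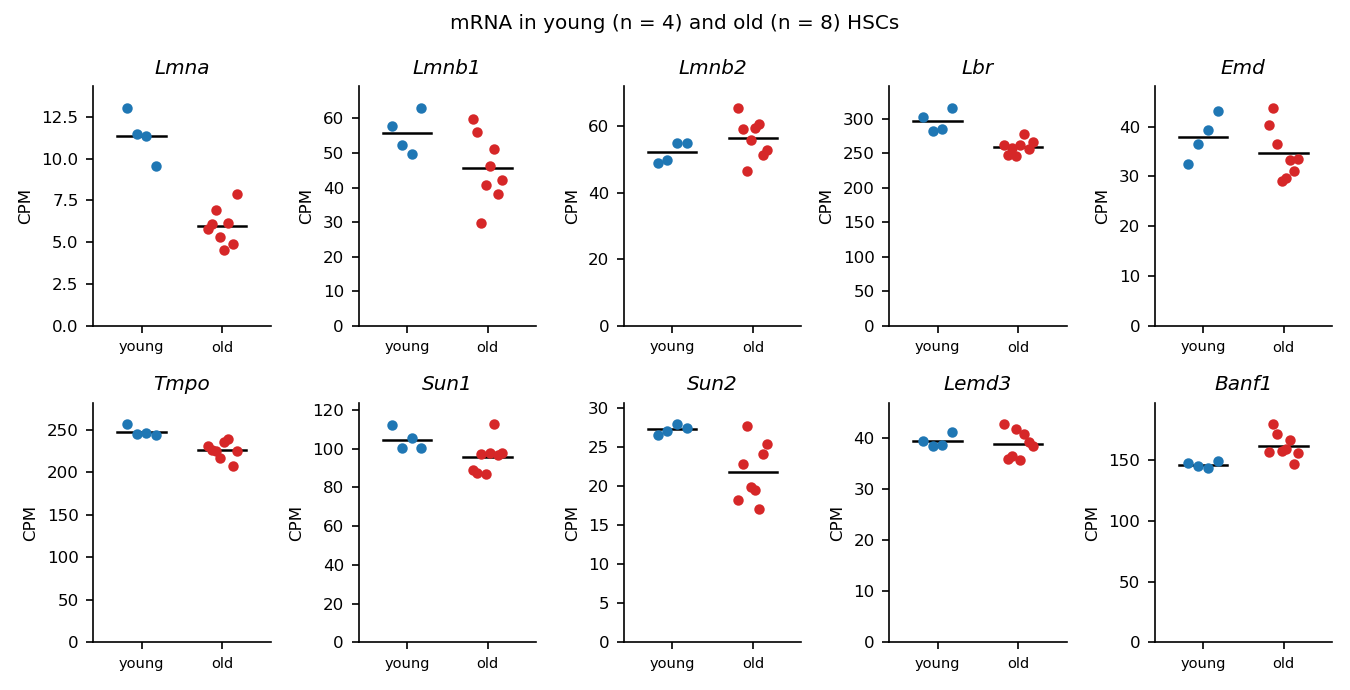
Messenger RNA of the 10 genes in CPM (linear axis from 0), 1 panel per gene, with 4 YHSC libraries (blue) and 8 OHSC libraries (red). Points are libraries and black lines are group means. Lmna shows the clearest separation, 9.53 to 13.0 CPM in YHSCs against 4.54 to 7.90 CPM in OHSCs.

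The B-type lamins did not pass the test with age. Lmnb1 (chromosome 18) was at 57.7, 52.4, 49.8 and 63.1 CPM in YHSCs and ranged from 29.8 to 59.9 CPM around a median of 44.3 in OHSCs, with 5 of 8 OHSC libraries below all YHSC libraries (log2 -0.29, SE 0.166, edgeR adjusted p = 0.29). The OHSC libraries spread widely for this gene, with an SD of 9.93 CPM against 5.91 in YHSCs. Lmnb2 (chromosome 10) had medians of 52.3 and 57.3 CPM in YHSCs and OHSCs (log2 0.11, edgeR adjusted p = 0.327), with overlapping groups. As level per kilobase of exon, Lmna divided by the sum of both B-type lamins was 0.0479 to 0.0722 in YHSCs and 0.0264 to 0.0568 in OHSCs, ranges that overlapped.

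Lbr, the lamin B receptor, a tether of peripheral heterochromatin that also acts as a sterol reductase, was lower in OHSCs. It was at 303, 283, 285 and 316 CPM in YHSCs, and at 247 (lowest), 260 (median) and 277 CPM (highest) in OHSCs. The groups did not overlap, and the log2 difference was -0.19 (SE 0.040, edgeR adjusted p = 0.000809). Tmpo, which encodes the LAP2 proteins, some of which bind lamins at the membrane and some in the nuclear interior, behaved likewise on a smaller scale. Its YHSC levels were 256, 245, 246 and 243 CPM and its OHSC levels 207 to 239 CPM with a median of 225, again without overlap (log2 -0.13, SE 0.039, edgeR adjusted p = 0.0138). 3 of 12 proliferation genes were also lower in OHSCs (Cdk1 log2 -0.71, Mcm5 -0.50 and Mcm2 -0.37), and the list summed to 679 to 763 CPM in YHSCs and 475 to 639 CPM in OHSCs. The part of cycling cells in the lower Lbr and Tmpo was not tested.

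Sun2 also passed the test with age, with overlap. This LINC complex gene was at 26.6, 27.1, 27.9 and 27.5 CPM in YHSCs and at 17.1 (lowest), 21.4 (median) and 27.7 CPM (highest) in OHSCs, where 7 of 8 libraries lay below all YHSC libraries. The log2 difference was -0.32 (SE 0.103, edgeR adjusted p = 0.0317). Its paralog Sun1 had medians of 103 and 97.1 CPM in YHSCs and OHSCs (log2 -0.13, edgeR adjusted p = 0.129), and its highest library was an OHSC library at 113 CPM.

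Banf1 was the 1 gene of the 10 that rose. BAF, its product, bridges DNA and LEM domain proteins when the envelope re-forms after mitosis. The YHSC levels were 148, 145, 143 and 149 CPM, and OHSC levels ran from 147 to 179.5 CPM with a median of 158. Reads that Banf1 shares with Eif1ad, which overlaps it on the opposite strand, could not be told apart. In 7 of 8 OHSC libraries the Banf1 level was above all YHSC libraries (log2 0.14, SE 0.046, edgeR adjusted p = 0.0275). The LEM domain genes Emd (log2 -0.13, edgeR adjusted p = 0.475) and Lemd3 (log2 -0.022, edgeR adjusted p = 0.855) did not pass, and the 95% interval for Lemd3 ran from -0.14 to 0.097 on the log2 scale.

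Counted together, 5 of the 10 genes passed an adjusted p of 0.05 with age (4 lower, 1 higher), where 20.6% of 21522 genes passed. Adding the fold change cut-off of 1.5 left 1 gene, Lmna, where 7.52% of all genes remained. The median log2 difference was -0.13 over the 10 genes and -0.0073 over all genes. These calls were unequal in stability. When 1 of the 12 libraries was left out at a time, Lmna and Lbr passed in 12 of 12 fits, Tmpo in 11, Banf1 in 8 and Sun2 in 5. Without the first YHSC library 2 genes passed, and without the second, the third or the fourth 3 genes passed.

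Of 45 genes on 6 lists of envelope genes that work with the lamina, 3 were higher and 7 lower with age at an adjusted p below 0.05. These 10 genes are 22.2% of the 45, near the 20.6% of all genes. None passed with a fold change above 1.5, where 7.52% of all genes did, and the median log2 difference was -0.051. Among enzymes that process lamins, Zmpste24, the protease that matures prelamin A, was higher (log2 0.17, edgeR adjusted p = 0.00614), while the farnesyltransferase subunits Fntb (log2 -0.23, edgeR adjusted p = 0.0191) and Fnta (log2 -0.14, edgeR adjusted p = 0.0142) were lower. Both kinases that phosphorylate BAF were lower, Vrk1 (log2 -0.28, edgeR adjusted p = 3.73e-05) and Vrk2 (log2 -0.24, edgeR adjusted p = 0.00499). Hdac3, a deacetylase that binds emerin and LAP2, was higher (log2 0.11, edgeR adjusted p = 0.0472).

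Of 8 nesprin and torsin genes only Tor1a, an ATPase of the envelope lumen, passed (log2 -0.15, edgeR adjusted p = 0.0485). Ankle2, a LEM domain protein that helps recruit BAF, was the 1 of 7 other inner nuclear membrane genes that passed (log2 -0.13, edgeR adjusted p = 0.0479). Of 13 nuclear pore genes, the scaffold gene Nup93 was higher (log2 0.19, edgeR adjusted p = 0.0194) and the membrane-ring gene Pom121 lower (log2 -0.16, edgeR adjusted p = 0.00931). None of 6 envelope resealing genes passed (1 had an unadjusted p below 0.05).

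Chromatin at the start sites of 7 of the 10 genes was less accessible in OHSCs at an adjusted p below 0.05, as it was at many start sites of other genes. The ATAC-seq table held 40 regions over or up to 1000 bases before these genes, of which 30 passed the filter. By the study's cut-offs (fold change above 1.5 and adjusted p below 0.01) 0 of the 30 were called by edgeR and 0 by DESeq2, where 13% of 89245 regions were called, and 12 of the 30 had an unadjusted p below 0.05. At an adjusted p below 0.05 alone, 33.8% of all regions passed and 9 of the 30 did, 8 lower and 1 higher. The 8 lower regions all lay at start sites and belonged to 7 genes. All 13 tested start regions had a negative log2 difference, from -0.34 to -0.035, and the median over the 30 regions was -0.11 against -0.011 over all regions. Lower calls made up 15.3% of all regions. Among 17436 regions within 1000 bases of the start of any protein-coding transcript they made up 34.9%, and 77.9% of those regions had a negative log2 difference (median -0.13).

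At Banf1 the start region (chr19:5366101-5367217) held 18.1, 20.6, 19.5 and 18.6 CPM in YHSCs and 15.8, 15.5, 13.8 and 15.5 CPM in OHSCs, without overlap (log2 -0.34, SE 0.082, edgeR adjusted p = 0.00096). Accessibility was therefore lower and messenger RNA higher at this gene. At Sun2 (chr15:79741243-79742905) the values were 25.997, 25.6, 23.2 and 24.04 CPM in YHSCs and 22.8, 17.6, 17.7 and 20.9 CPM in OHSCs (log2 -0.33, SE 0.077, edgeR adjusted p = 0.000652). At Lbr (chr1:181841671-181843140) they were 41.9, 40.7, 40.5 and 46.8 CPM in YHSCs and 39.6, 36.2, 34.2 and 33.6 CPM in OHSCs (log2 -0.25, SE 0.059, edgeR adjusted p = 0.000707). All OHSC libraries were below all YHSC libraries at both. The start regions of Sun1 (log2 -0.24), Emd (-0.22) and Lemd3 (-0.18) passed as well, and those of Lmnb1, Lmnb2 and Tmpo did not.

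Lmna had 3 tested start regions. The most upstream, at chr3:88509660-88510639, held 26.8, 25.2, 26.4 and 25.1 CPM in YHSCs and 23.4, 22.1, 19.7 and 23.9 CPM in OHSCs (log2 -0.22, SE 0.070, edgeR adjusted p = 0.0119). The middle region, chr3:88502684-88503819, overlaps the first promoter printed above and differed by -0.15 on the log2 scale (edgeR adjusted p = 0.28, overlapping groups). The downstream region, chr3:88492633-88493483, meets the second promoter and held 10.99, 11.1, 9.51 and 10.3 CPM in YHSCs and 8.65, 7.92, 8.72 and 7.71 CPM in OHSCs, with no overlap (log2 -0.34, SE 0.109, edgeR adjusted p = 0.0112). The difference in messenger RNA, -0.93 on the log2 scale, was larger than each of these. The 1 region that rose was in an intron of Lmnb1, 29898 bases from its start (log2 0.30, edgeR adjusted p = 0.03).

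H3K27ac, a mark of active promoters and enhancers, was measured in 2 libraries per age and was compared by the study's rule, which has no test, and by limma. The 10 genes had 17 peaks, 12 of them at promoters, and 0 met the rule for changed peaks (ratio of means above 1.5 and each old to young pairing at least 1.2), where 11.4% of 39557 peaks did. A limma fit across all peaks passed 0 of the 17, where 2.3% of all peaks passed, and 0 had an unadjusted p below 0.05. The signal, summed over promoter peaks, of Lmna was 4.00 and 4.95 in YHSCs and 5.54 and 5.79 in OHSCs, higher in 4 of 4 pairings (log2 0.34). Emd was also higher in 4 of 4 pairings (7.80 and 7.25 against 10.5 and 8.89, log2 0.36), and Sun2 was lower in 4 of 4 (9.35 and 8.51 against 7.57 and 6.58, log2 -0.34). Banf1 (log2 -0.18) and Sun1 (log2 -0.11) were lower in 4 of 4 pairings as well. The 4 pairings reuse the same 2 libraries per age, and the share of all peaks with 4 pairings alike was not computed. The sign of the H3K27ac difference, which did not pass at any of the 10 genes, was opposite to that of messenger RNA at Lmna, Emd and Banf1. With each library divided by its median peak, the log2 differences of Lmna, Emd and Sun2 were 0.23, 0.27 and -0.43. The Sun2 peaks, alone among those of the 10 genes, were marked in the authors' annotation as of low mappability.

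**Figure D2:**
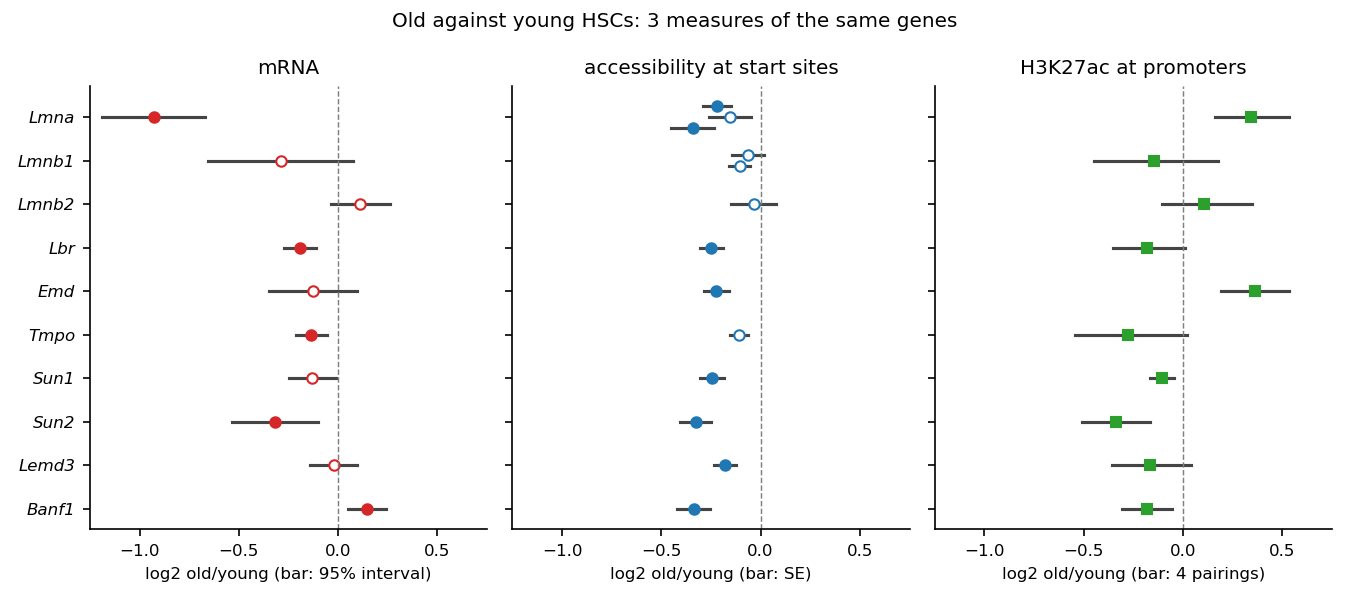
Log2 difference of OHSCs from YHSCs for each of the 10 genes in messenger RNA (left, red, with 95% interval), accessibility at start sites (middle, blue, 1 point per region, with SE) and summed promoter H3K27ac (right, green, with the range of 4 old to young pairings). Filled circles have an adjusted p below 0.05, squares carry no test, and the start sites all sit below 0 while messenger RNA and H3K27ac lie on both sides.

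Marks of transcription were also read at the 10 genes. In YHSCs, the 2 Lmna promoter peaks of H3K4me3, the mark of active starts, had signals of 13.2 and 12.4 (percentiles 34.9 and 31.9 among promoter peaks) and of 6.70 and 6.25 (percentiles 15.0 and 14.7), where the median promoter peak had 17.1 and 17.7. Emd had 12.3 and 11.6, below the stronger Lmna peak, and the promoter peaks of the other 8 genes had between 19.4 and 29.4. Domains of H3K36me3, a mark of transcribed gene bodies, were deposited as positions with no sample named, and covered 6.71% of Lmna and 60.5% to 97.6% of 6 others and all of Lbr, Sun2 and Banf1, where the median gene had 41.8% covered. Lmna was also the only 1 of the 10 with a peak of the repressive mark H3K27me3, where 10015 genes of the annotation had such a peak. The Lmna peak came from the OHSC peak set and was weak in YHSCs. Its YHSC signal was 0.485 and 0.281 (percentiles 35.3 and 4.78 among promoter peaks), where the median promoter peak had 0.583 and 0.605.

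Levels across the 11 RNA groups were set side by side on a common scale, per kilobase of exon. No test was made, since kit, sequencer and sorting gate were not the same in all experiments. Banf1 or Lbr had the highest level of the 10 genes in each group. Lmna had the lowest in 10 of 11 groups and ranked 4 in MEPs. Its group means ran from 0.167 CPM per kilobase in GMPs to 63.2 in MEPs, a 378-fold range. Sun2 had the next widest range, 21.9-fold, in the opposite order, from 1.96 in MEPs to 42.9 in GMPs. Lemd3 had the narrowest, 1.32-fold, and all its neighboring groups overlapped.

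In order of level, Lmna followed MEPs with cultured shControl (4.06 CPM per kilobase), cultured shRNA2 (3.61) and cultured shRNA1 (3.55), then transplanted shRNA2 (1.83), YHSCs (1.72), transplanted shControl (1.56), transplanted shRNA1 (1.41), CMPs (1.24), OHSCs (0.891) and GMPs (0.167). The libraries of both cultured shRNA groups overlapped, as did neighbors from transplanted shRNA2 to transplanted shRNA1, and CMPs with OHSCs. Lmnb1 ran from 13.5 in OHSCs to 125 in GMPs and Lbr from 47.7 in OHSCs to 186 in GMPs, both with YHSCs as the next lowest group. Over the 11 group means of log2 CPM, which share libraries and depth within each experiment, the genes with patterns most like Lmna were Gt(ROSA)26Sor (Pearson r = 0.983), Traf4 (0.979) and St3gal5 (0.978). For Lmnb1 they were Tstd2 (0.995), Nxt1 (0.992) and Mtif3 (0.992), and for Lbr they were Cdk1 (0.996), BC030867 (0.995) and Plk4 (0.995). Among the 10, Lmnb1 and Lbr had r = 0.946, Lmna and Sun1 0.811, and Lmna and Sun2 -0.72.

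**Figure D3:**
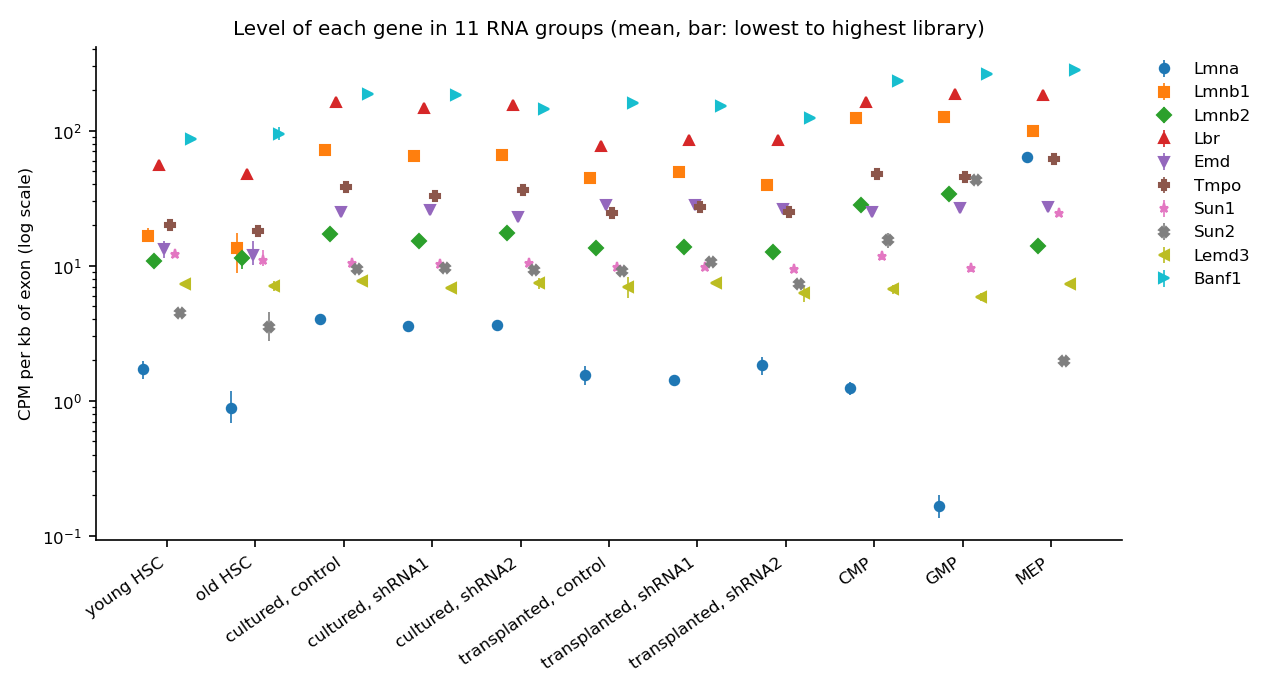
Mean level of each gene in 11 RNA groups in CPM per kilobase of exon (log axis), with bars from the lowest to the highest library. Lmna (circles) lies under all other genes except in MEPs, where it reaches 63.2 and Sun2 (crosses) falls to 1.96.

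Among young progenitors, Lmna separated the 3 cell types most widely. It was at 5.29 and 6.62 CPM in CMPs, 0.667 and 0.976 CPM in GMPs (22 and 30 reads) and 302 and 299 CPM in MEPs. The groups were far apart, with a 50.4-fold higher level in MEPs than in CMPs (log2 5.65, SE 0.098, edgeR adjusted p = 3.26e-14) and a lower level in GMPs than in CMPs (log2 -2.86, SE 0.182, edgeR adjusted p = 1.25e-07). Against GMPs, MEPs were 366-fold higher (log2 8.52, edgeR adjusted p = 7.33e-15). The 3 contrasts share libraries. The per-kilobase ratio of Lmna to the sum of both B-type lamins was 0.539 to 0.571 in MEPs, 0.00727 to 0.00903 in CMPs and 0.000859 to 0.00125 in GMPs.

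Sun2 ran the other way. It was at 77.6 and 60.2 CPM in CMPs, 184 and 207 CPM in GMPs and 8.66 and 8.62 CPM in MEPs. The MEP level was 0.125 of the CMP level (log2 -2.995, SE 0.129, edgeR adjusted p = 9.56e-09), and the GMP level was 2.83-fold higher than in CMPs (log2 1.503, SE 0.108, edgeR adjusted p = 3.63e-06). Sun1 showed the reverse, at 68.0 and 78.1 CPM in CMPs, 57.6 and 64.6 CPM in GMPs and 160 and 143 CPM in MEPs (MEPs against CMPs log2 1.06, SE 0.084, edgeR adjusted p = 1.71e-07). The SUN genes thus had opposite orders, Sun1 highest and Sun2 lowest in MEPs.

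Lmnb2 was lowest in MEPs at 48.1 and 48.7 CPM, against 96.2 and 103 CPM in CMPs and 121 and 122 CPM in GMPs (MEPs against CMPs log2 -1.04, edgeR adjusted p = 7.01e-09). Lmnb1 was at 235 and 247 CPM in MEPs and at 301 and 303 CPM in CMPs (log2 -0.33, edgeR adjusted p = 3.06e-05). Both B-type lamins were therefore lower where Lmna was high. Tmpo was higher in MEPs than in CMPs (log2 0.36, edgeR adjusted p = 1.09e-05), as were Banf1 (log2 0.26, edgeR adjusted p = 0.000197) and Lbr (log2 0.16, edgeR adjusted p = 0.0039). Emd and Lemd3 passed in none of the 3 contrasts.

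In MEPs against CMPs, 8 of the 10 genes passed (5 higher, 3 lower) where 64.6% of 18234 genes passed, and 4 passed with a fold change above 1.5 where 46.7% did. In GMPs against CMPs 6 passed (4 higher, 2 lower) where 34.8% passed, and 2 with the fold change where 16.7% did. In MEPs against GMPs 6 passed (3 in each direction) where 61.4% passed, and 4 with the fold change where 43.7% did. These shares of all genes are large, and the counts of the 10 genes are to be read beside them. Of the 45 genes on the other envelope lists, 22 were higher and 13 lower in MEPs than in CMPs.

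**Figure D4:**
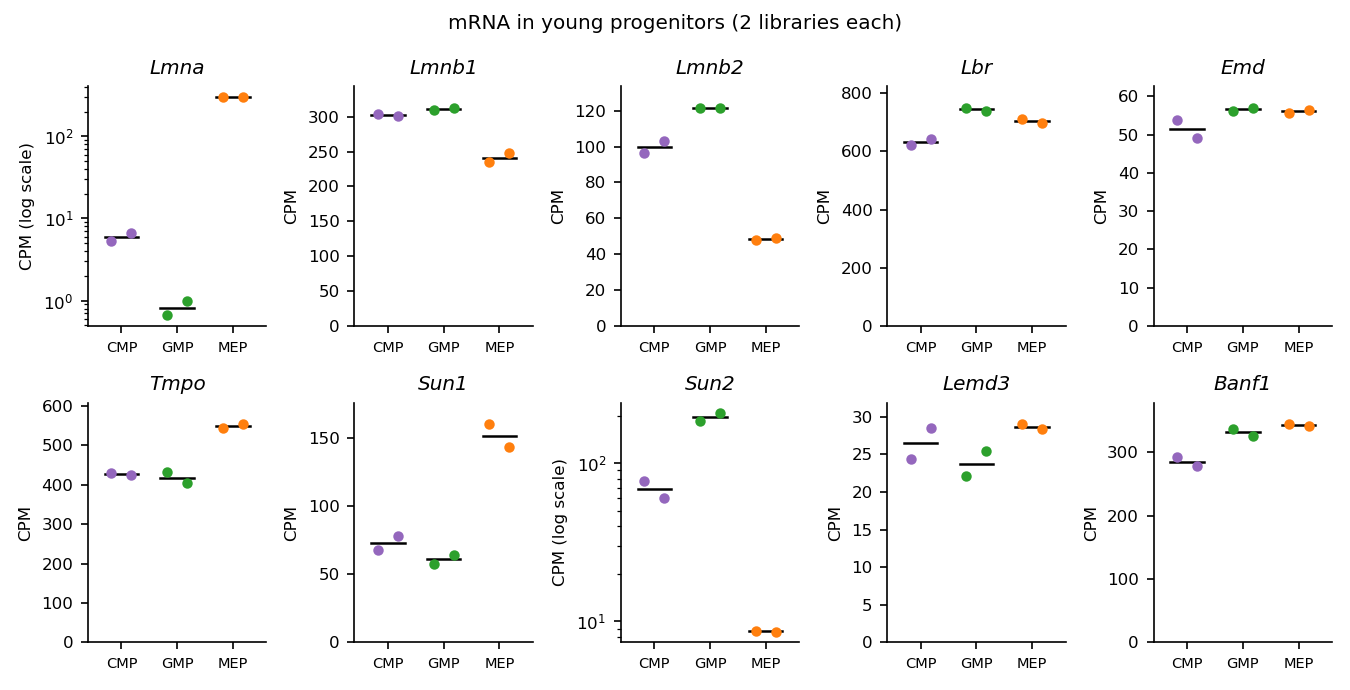
Messenger RNA of the 10 genes in CPM in CMPs, GMPs and MEPs, 2 libraries each (points) with the group mean (line). Lmna and Sun2 are on log axes, the other 8 on linear axes from 0. Lmna runs from under 1 CPM in GMPs to 302 CPM in MEPs, and Sun2 from 8.62 CPM in MEPs to 207 CPM in GMPs.

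Knockdown of Btaf1 in cultured OHSCs moved none of the 10 genes past the test when all 4 knockdown libraries were set against the 2 controls. edgeR passed 0 of 10 where 3.36% of 19763 genes passed, DESeq2 also passed 0, and 3 had an unadjusted p below 0.05. These were Lmnb1, Lbr and Tmpo. Lbr was at 724 and 712 CPM in shControl, 644 and 651 CPM with shRNA1 and 684 and 675 CPM with shRNA2 (log2 -0.11, SE 0.037, edgeR adjusted p = 0.117). Tmpo was at 389 and 390 CPM in shControl, 347 and 319 CPM with shRNA1 and 373 and 365 CPM with shRNA2 (log2 -0.15, SE 0.054, edgeR adjusted p = 0.182). All 4 knockdown libraries were below both controls for Lmna, Lmnb1, Lbr and Tmpo, none of which passed. The share of all genes separated in this way was not computed. 5 of 12 proliferation genes were lower in the same comparison, their summed level being 3239 to 3246 CPM in shControl and 2770 to 3090 CPM with knockdown. The part of proliferation in these values was not tested.

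The hairpins differed from each other. With shRNA1 alone against shControl, Lmnb1 (edgeR adjusted p = 0.0405), Lbr (0.00233) and Tmpo (0.000134) were lower, 3 of 10 where 9.99% of genes passed. With shRNA2 alone only Banf1 passed (log2 -0.38, edgeR adjusted p = 7.19e-06), 1 of 10 where 7.69% of genes passed. Banf1 was at 253 and 264 CPM in shControl, 254 and 252 CPM with shRNA1 and 199.6 and 197 CPM with shRNA2. Set directly against shRNA1, shRNA2 had lower Banf1 (log2 -0.35, SE 0.037, edgeR adjusted p = 3.47e-07) and higher Tmpo (log2 0.15, SE 0.038, edgeR adjusted p = 0.018), and 5.59% of all genes passed this contrast. Btaf1 itself differed between hairpins by -0.0044 on the log2 scale (edgeR adjusted p = 0.979).

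After transplantation 0 of the 10 genes passed by edgeR, where 0% of 20350 genes passed, and 0 of them by DESeq2, which passed 60 genes in all. Replicates of these libraries differed widely in some lineage markers, with Mpo at 1.18 and 36.03 CPM in shControl and at 8.46 and 181 CPM with shRNA1, and Vwf at 222 and 408 CPM in shControl and at 162 and 381 CPM with shRNA1. Leaving out any 1 of the 6 libraries left 0 of the 10 genes passing. Lbr was the 1 gene with an unadjusted p below 0.05. It was at 361 and 378 CPM in shControl, 418 and 401 CPM with shRNA1 and 408 and 414 CPM with shRNA2, all 4 above both controls (log2 0.15, SE 0.052, edgeR adjusted p = 0.852). Proliferation genes summed to 1213 and 1433 CPM in shControl, 1457 and 1547 CPM with shRNA1 and 1374 and 1359 CPM with shRNA2, and 0 of 12 passed (1 had an unadjusted p below 0.05). Their part in the Lbr values was not tested. Banf1 was at 249 and 237 CPM in shControl, 225 and 234 CPM with shRNA1 and 195 and 178 CPM with shRNA2. Its difference between hairpins had the same sign as in culture and did not pass (log2 -0.30, edgeR adjusted p = 0.207). Sun2 was at 48.6 and 52.4 CPM in shControl, 58.7 and 59.2 CPM with shRNA1 and 38.6 and 41.7 CPM with shRNA2, so that the hairpins lay on opposite sides of the control (shRNA2 against shRNA1 log2 -0.55, SE 0.091, edgeR adjusted p = 0.117).

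**Figure D5:**
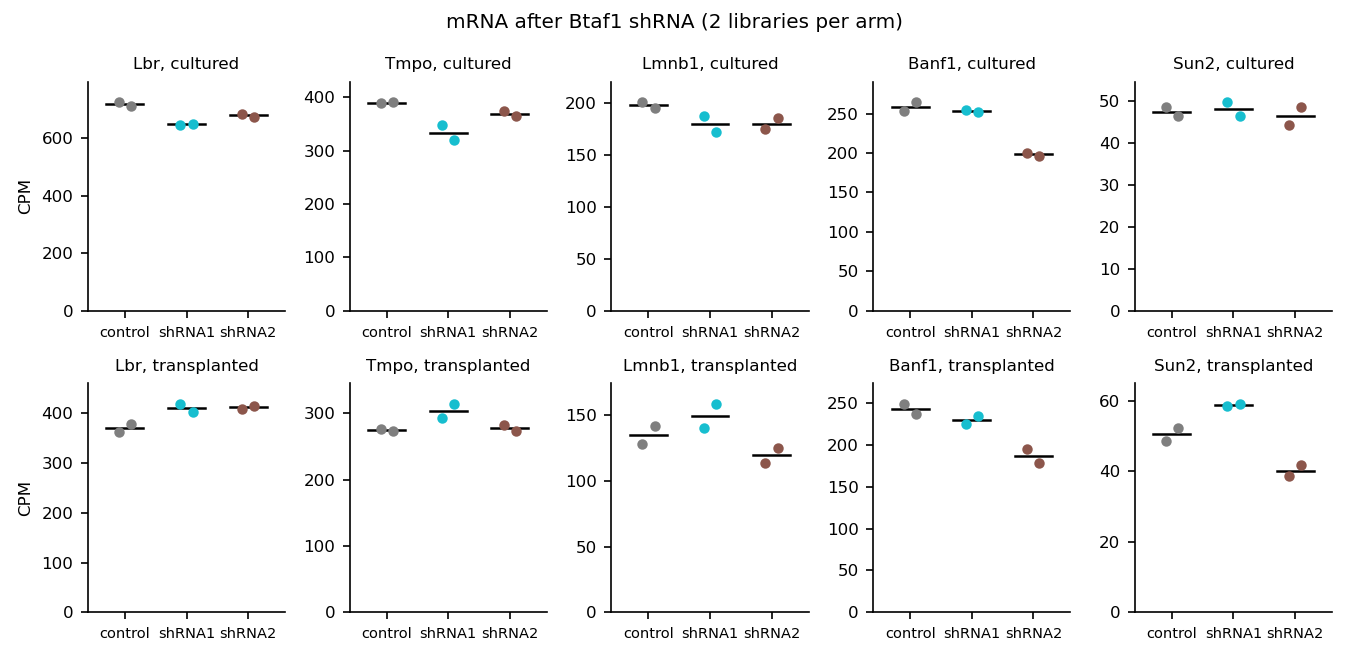
Messenger RNA of 5 of the 10 genes in CPM (linear axes from 0) in shControl, shRNA1 and shRNA2, cultured (top) and transplanted (bottom). Points are libraries, 2 per arm, and lines are means. Banf1 is lowest with shRNA2 in both rows (197 to 199.6 CPM and 178 to 195 CPM), and Lbr lies below the control in culture and above it after transplantation.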

How the data were processed

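RNA-seq, ATAC-seq and histone ChIP-seq files of sorted mouse bone marrow cells were used. For RNA-seq and ATAC-seq the authors deposited raw read counts per gene (cutadapt, STAR and featureCounts on mm10 with GENCODE M22) or per accessible region (BWA and MACS2). For ChIP-seq the authors deposited a signal per peak from libraries scaled to an equal number of reads, with no further unit named, together with the peak's gene. Fold change columns of the authors' own comparisons were not used. Nor were 8 per-sample columns that could not be tied to a sample, 4 of old ATAC-seq libraries and 4 of histone marks.

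Counts were fitted across all genes or regions with edgeR 4.0.16 (R 4.3.3, TMM, filterByExpr, robust quasi-likelihood test, Benjamini-Hochberg adjustment). For ATAC-seq, regions above 1.5 CPM in at least 4 libraries were kept. An adjusted p below 0.05 counted as passed. DESeq2 1.42.0 and limma 3.58.1 (log2 of signal plus 0.5) were alternatives, and scripts were tested on simulated data. CPM used TMM factors within an experiment, and over all RNA libraries for levels across groups. Exon lengths and places came from GENCODE M21, overlaps from bedtools 2.31.1, and promoters from RefSeq.

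The 10 genes and the lists were chosen with earlier results of these data known. The text names those 10, up to 3 genes per list and direction with the largest fold change among those that passed with age, and the 3 genes most like Lmna, Lmnb1 and Lbr. Replicate numbers did not pair samples (correlations of same-numbered deviations -0.17 to 0.030). No libraries were duplicates. OHSC replicates were single mice and transplanted replicates were pools of recipients. For cultured cells and progenitors the sources do not say that replicates came from separate animals, so p-values there measure the spread between libraries, which may be technical. Alternatives were another tool, scaling, filter, fold cut-off and hairpin, a replicate block, and each library left out. The comparison of shRNA2 with shRNA1 and the test of knockdown by experiment were added after the data were seen. The smallest counts of the 10 genes were those of Lmna in GMPs (22 and 30 reads). The result of 1 marker gene, and the sum of its list, are not reported here.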

Additional observations from a re-analysis of the deposited data

Results flagged for a closer look

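Among 46 sets of 4 or 8 libraries examined, 5 held a library far from the others by Dixon's test at its 95% critical value, which chance gives in about 1 set in 20. Tmpo messenger RNA was highest in YHSC library 1, at 256 CPM against 243 to 246 CPM in the other 3. Sun1 messenger RNA was highest in OHSC library 6, at 113 CPM against 86.9 to 97.8 CPM in the other 7. Accessibility was farthest from the other old libraries in old library 5 at a Lmnb1 region centered 1298 bases from the start (21.95 CPM, highest), in old library 6 at the Emd start (26.9 CPM, lowest) and in old library 7 at the Banf1 start (13.8 CPM, lowest).

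The knockdown effect on Lbr differed in sign between experiments, since all 4 knockdown libraries were below the controls in culture and above them after transplantation. The difference of the log2 effects (transplantation minus culture) was 0.27 (SE 0.060, edgeR adjusted p = 0.103), which did not pass in a fit where 45 of 21443 genes (0.21%) did.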

How the results depend on the processing

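Limits are the 2 libraries of most groups, the pooling of young but not old mice, and the few Lmna reads in GMPs. Over the alternatives for the messenger RNA of each of the 10 genes, 642 values kept their direction and side of the threshold. Of the rest, 18 stopped passing, 9 began to pass and 31 reversed, each of the latter in a gene that had not passed. Accessible regions, H3K27ac peaks and the counts of genes that passed are outside this tally. The cause was not tested.

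With a fold change above 1.5 as well, 1 gene passed with age, 4 in MEPs against CMPs and 2 in GMPs against CMPs. In culture, 1 gene passed without a filter on low counts, 3 with shRNA1 alone and 1 with shRNA2 alone. Over all genes the culture count went from 665 to 1299 without the filter, 1916 with shRNA1 alone, 1470 with shRNA2 alone, and 141 and 150 without shControl replicate 1 or 2. After transplantation DESeq2 passed 60 genes where edgeR passed 0. Without the CPM filter 1 accessible region was called. Scaling to the same median moved Sun1 promoter H3K27ac to -0.20 (log2).

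The numbers did not pair the samples. With the replicate number as a block, 6 genes passed with age, 0 in culture, 0 after transplantation, 8 in MEPs against CMPs, 6 in GMPs against CMPs and 7 in MEPs against GMPs. No block was fitted to ATAC-seq, whose ages share no numbers. A limma fit of H3K27ac with the block, added after the data were seen, passed 0 of the 17 peaks and 2291 of all peaks, against 911 without it.

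Leaving out 1 library gave 2 to 6 genes with age, 5 to 6 in GMPs against CMPs, 7 to 8 in MEPs against CMPs, 6 to 7 in MEPs against GMPs, 0 in both knockdown experiments, 0 to 1 called accessible regions (1 without old library 6) and 0 to 1 changed H3K27ac peaks. An arm left with 1 library was assumed to vary like the others.

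On the log2 scale, shRNA1 alone reversed Emd (0.050) and Sun2 (0.019) in culture and Lmna (-0.14), Lmnb1 (0.15), Lmnb2 (0.0025), Sun2 (0.22) and Lemd3 (0.084) after transplantation, and shRNA2 alone reversed Lmnb2 in culture (0.018). With 1 library left out, values that changed sign ran from -0.043 to 0.0021 for Lemd3 with age, -0.12 to 0.058 for Emd, -0.022 to 0.013 for Sun1 and -0.039 to 0.030 for Sun2 in culture, -0.17 to 0.31 for Lmna, -0.093 to 0.069 for Lmnb1, -0.12 to 0.0091 for Lmnb2, -0.14 to 0.077 for Sun1, -0.12 to 0.071 for Sun2 and -0.27 to 0.23 for Lemd3 after transplantation, -0.010 to 0.21 for Lemd3 in MEPs against CMPs, and -0.085 to 0.013 for Tmpo in GMPs against CMPs. For promoter H3K27ac they ran from -0.33 to 0.065 for Lmnb1 and -0.082 to 0.32 for Lmnb2.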
